A study of Homo sapiens with 31 samples.

Results

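MCF10A, a line of untransformed human breast epithelium, was compared at 15 h and at 12 h after its cells had been released from quiescence into full medium with the vehicle, 0.1% DMSO. The members are the 3 libraries labelled DMSO at 15 h and the 3 labelled DMSO at 12 h, chosen by those labels alone, 6 of the 31 libraries of the series. Before release all cells had been starved of serum, EGF and insulin for 2 to 3 days in medium that still held hydrocortisone and cholera toxin, and full medium restored horse serum, EGF and insulin. Levels at DMSO 9 h (3 libraries) and DMSO 24 h (2 libraries) place the step in time (palbociclib 24 h, 2 libraries, is only drawn), and cells in full medium with 1 µM palbociclib, an inhibitor of CDK4 and CDK6, at 15 h and at 12 h (3 libraries each) cover the same interval with those kinases inhibited. The model is 1 cell line. Whether its replicates came from separate cultures is not given in the labels, so each p-value reflects the spread among libraries alone, and that spread may be technical. A change in the share of cells in a phase and a change in transcripts per cell cannot be told apart in such bulk RNA.

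Quiescent cells that return to the cycle first make D cyclins, whose kinases CDK4 and CDK6 phosphorylate the retinoblastoma protein and free E2F factors. E2F switches on cyclin E and the genes for loading and firing replication origins, making deoxynucleotides and copying DNA. Genes of mitosis follow later: the MuvB complex with B-MYB and FOXM1 activates them through CHR elements in their promoters, and cyclin A, cyclin B, CDK1 and the Aurora and Polo kinases then carry cells into division.

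The 6 libraries held 13278560 to 19018700 gene counts, with a mitochondrial share of 3.079% to 3.798% at DMSO 15 h and 3.163% to 3.618% at DMSO 12 h. Both replicate 2 libraries stood apart on the main axis of variation within the groups, with scores of 10.47 at 15 h and 9.84 at 12 h, against −7.72 and −9.07 for replicate 3. That axis held 42.1% of the variance within the groups, and its gene loadings went with exon length (Spearman rho −0.397 across 11739 genes, which are not independent replicates). Same-numbered libraries deviated together, so the step was also fitted with the replicate number as a block over all 31 libraries, and with that block in the 6 libraries alone, which changes both the block and the libraries that set the error.

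From 12 to 15 h, vehicle-treated cells had more genes rise than fall. Of 15787 genes tested, 794 rose (5.03%) and 313 fell (1.98%) at an adjusted p below 0.05 in edgeR's quasi-likelihood test, and 126 of the rises (0.798% of genes) and 17 of the falls (0.108%) were at least 2-fold. Lists of S phase functions held 120 of the rises and lists of mitotic functions 118, together 237 of 794, though these lists cover only 345 of the tested genes. Among the 126 rises of at least 2-fold, 65 were in the mitotic lists and 18 in the S phase lists, while 2 of the 313 falls were in either. The median log2 change over all tested genes was 0.01. With the block over all libraries 976 genes rose (6.18%) and 441 fell (2.79%). With the block in the 6 libraries alone 1584 rose (10.0%) and 1212 fell (7.68%), including all 794 and all 313. Falls depended on single libraries: 179 were called without replicate 2 of DMSO 15 h, 204 without its replicate 3 and 198 without replicate 2 of DMSO 12 h. With library totals in place of TMM factors, 60.6% of the calls were rises, and with the 6-library block 56.7%, against 71.7%.

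**Figure D1:**
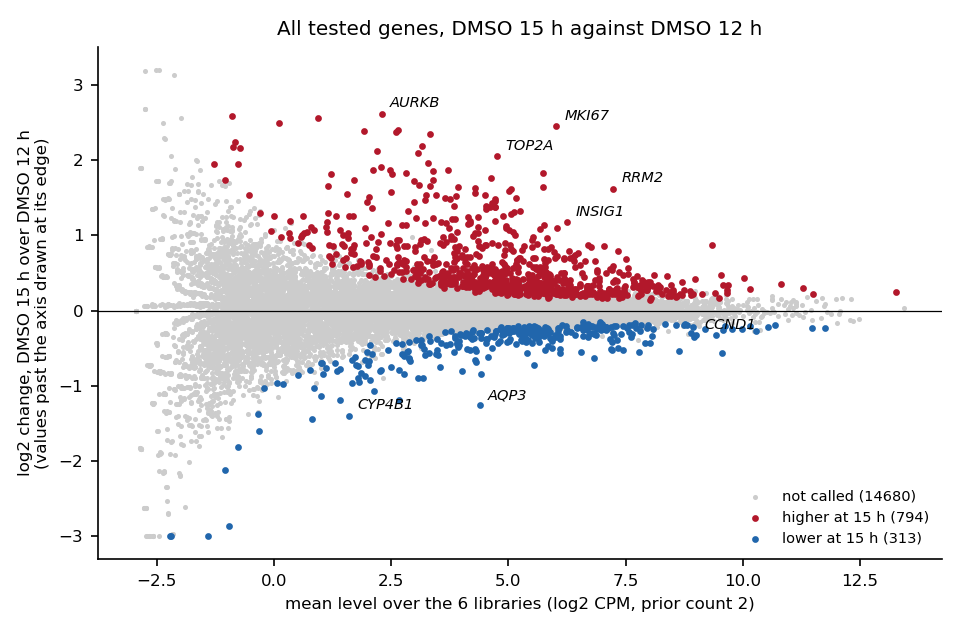
Log2 change of DMSO 15 h over DMSO 12 h (vertical axis) against the mean level over the 6 libraries in log2 CPM (horizontal axis) for the 15787 tested genes. Red points are the 794 genes that rose and blue points the 313 that fell, with changes beyond the axis drawn at its edge. MKI67 (2.46) and AURKB (2.62) rose further than AQP3 (−1.26) and CYP4B1 (−1.40) fell.

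Regulators of S phase entry rose, most of them by modest amounts. Of 23 tested genes for E2F factors, cyclin E and their G1/S partners, 14 rose and 1 fell, with a median log2 change of 0.37, against 5.03% and 1.98% of all genes. Among the 14 rises 4 were at least 2-fold, against 0.798% of all genes. CCNE1, the cyclin E that drives CDK2 at the start of S phase, had 20.9, 22.8 and 20.3 CPM at 15 h, against 15.5, 12.4 and 13.8 CPM at 12 h. All its 15 h libraries lay above the 12 h ones, a log2 change of 0.62 ± 0.13 (SE, adjusted p = 0.00095). E2F1, the activator E2F, reached 43.4, 46 and 36.4 CPM at 15 h, against 35.3, 32.3 and 29.8 CPM at 12 h, and its change of 0.37 ± 0.1 lost its call when any of 4 of the 6 libraries was left out. E2F8, a repressor that E2F itself induces, rose more steeply, to 10.4 ± 0.51 CPM at 15 h against 2.96 ± 0.18 CPM at 12 h (SD, n = 3 each). The single fall was CCND1, which encodes cyclin D1: it had 461, 441 and 466 CPM at 15 h and 563, 567 and 584 CPM at 12 h, a log2 change of −0.33 ± 0.1 (adjusted p = 0.032). That call was lost when any 1 of the 6 libraries was left out, with adjusted p-values up to 0.13. CDK4, CDK6, RB1, RBL2, CCND2, E2F3, TFDP1 and TFDP2 did not pass the test, though RB1 and TFDP1 were called higher with the block over all libraries (adjusted p = 0.019 and 0.014). CDKN1A (p21) averaged 248 ± 11 CPM at 15 h and 219 ± 13 CPM at 12 h (adjusted p = 0.18, 0.14 with the block over all libraries and 0.00045 with the 6-library block), and CDKN1B (p27) 19.5 ± 2.4 and 17.8 ± 0.96 CPM (adjusted p = 0.56), SD with n = 3 each.

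Replication genes rose almost as a body. Of 29 genes for licensing and firing origins 23 rose and none fell (median log2 change 0.45), and of 33 for the fork and its polymerases 25 rose and none fell (median 0.50). CDC45, the helicase partner that fires an origin, had 38.4, 43.5 and 37 CPM at 15 h, against 18.1, 17.6 and 16.5 CPM at 12 h. It was the one licensing and firing gene that at least doubled (log2 change 1.19 ± 0.09, adjusted p = 5.4e-11). CDC6, which loads the MCM helicase, had 109, 110 and 100 CPM at 15 h and 71, 61 and 63.5 CPM at 12 h, a log2 change of 0.71 ± 0.09. MCM2, a subunit of that helicase, changed less, with 150, 151 and 123 CPM at 15 h and 106, 107 and 102 CPM at 12 h (0.43 ± 0.08). MCM10, RECQL4 and GINS1, which act at origin firing, had log2 changes of 0.69, 0.86 and 0.67. ORC2, ORC4 and ORC5 of the origin recognition complex, TOPBP1, DBF4 and DBF4B did not pass the test, and DBF4 and DBF4B were called higher with the block over all libraries (adjusted p = 0.041 and 0.037). At the fork, the DNA ligase LIG1 had a log2 change of 0.90 ± 0.08, the clamp loader subunit DSCC1 0.87 ± 0.08 and the clamp PCNA 0.56 ± 0.07, with PCNA at 229 ± 13 CPM at 15 h and 155 ± 8.4 CPM at 12 h. KIAA0101, a PCNA-binding protein, rose by 1.47 on the log2 scale, although 28.8% of its exonic bases are shared with another gene.

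Of 14 deoxynucleotide enzymes tested, 10 rose and none fell (median log2 change 0.48), and 4 of them at least doubled. RRM2, the cell cycle regulated subunit of ribonucleotide reductase, had 261, 288 and 240 CPM at 15 h against 93.5, 83.5 and 79.3 CPM at 12 h. Its groups lay far apart, a log2 change of 1.62 ± 0.09 (adjusted p = 7e-14). Thymidine kinase TK1 averaged 38.5 ± 7.3 CPM at 15 h and 13.2 ± 0.43 CPM at 12 h (SD, n = 3 each). TYMS, thymidylate synthase, had a log2 change of 1.04 ± 0.11, with 26.2% of its exonic bases shared with another gene. SHMT2, DCTPP1, SAMHD1 and the p53-induced subunit RRM2B did not pass the test, SAMHD1 doing so with the 6-library block (adjusted p = 0.024).

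Genes for packing and repairing new DNA moved with them. Histone chaperones and chromatin replication factors rose in 14 of 21 cases (median log2 change 0.37), with ASF1B, a chaperone of newly made H3 and H4, at 36.7 ± 6.7 CPM at 15 h and 14.3 ± 0.99 CPM at 12 h (SD, n = 3 each). Recombination and Fanconi repair genes rose in 23 of 31 cases (median 0.69): FANCI had a log2 change of 1.09 ± 0.06, BRIP1 0.98 ± 0.08 and BRCA1 0.81 ± 0.07. Mismatch repair rose in 3 of 6 cases, MSH3 among them, and checkpoint genes in 7 of 14, among them DTL, which targets CDT1 for destruction, and CLSPN, the mediator of ATR signalling, at 0.51 and 0.70. None of the members of these 4 lists fell. ATR, RAD17, HUS1 and WEE1 did not pass the test, WEE1 doing so with the 6-library block (adjusted p = 0.016). Histone genes themselves are poorly sampled in poly(A) RNA, since most of their messages lack a tail: 16 of 27 were tested, 1 rose and 1 fell. HIST1H2BH averaged 0.914 ± 0.045 CPM at 15 h and 0.221 ± 0.13 CPM at 12 h, and HIST1H2BK 4.43 ± 0.12 and 6.36 ± 0.87 CPM (SD, n = 3 each). The HIST1H2BH call was lost when any 1 of the 6 libraries was left out (adjusted p 0.058 to 0.14), and falls came to 2 with the block over all libraries and 3 with the 6-library block.

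The published G2/M signature used to score single cells had 46 of 54 members higher and none lower, with a median log2 change of 1.24, while the matching S phase signature had 38 of 43 higher and none lower, with a median of 0.54. Of the G2/M members 32 at least doubled, against 5 of the S phase members. MKI67, the proliferation antigen Ki-67 that coats mitotic chromosomes, had 157, 165 and 133 CPM at 15 h, against 29.7, 24.9 and 28.6 CPM at 12 h, a 5.51-fold rise (log2 change 2.46 ± 0.13, adjusted p = 2.3e-14). Its gene lies at chr10:128096659-128126385 on the minus strand in the GRCh38 positions of the files. AURKB, the kinase of the chromosomal passenger complex, had the largest rise among the named genes, with 11.4, 14.9 and 9.54 CPM at 15 h and 2.51, 1.86 and 1.44 CPM at 12 h (2.62 ± 0.21). GTSE1, a microtubule-binding protein, had 15.9, 14.8 and 11.5 CPM at 15 h and 3.28, 2.55 and 2.12 CPM at 12 h (2.40 ± 0.21). In each of these genes the lowest 15 h library lay above the highest 12 h library, as the rule for naming the largest rises required. All 15 h libraries lay above all 12 h libraries in 2330 of the 15787 tested genes.

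Promoters of genes from the rising groups are printed here because the 2 waves are known for different elements, E2F sites for replication genes and CHR elements with CCAAT boxes for mitotic genes. They come from RefSeq (GRCh38.p14), run 5′ to 3′ and cover 250 bases before to 50 after the annotated start. Capitals mark matches on either strand to E2F letters (TTTGGCGC, TTTGCCGC, TTTCGCGC or TTTCCCGC), CHR letters (TTTGAA or TTCGAA) or CCAAT. MKI67 (chr10:128126374-128126673, minus strand) holds 2 CHR and 2 CCAAT matches, 1 of each overlapping by a base. GTSE1 (chr22:46296620-46296919, plus strand) holds 1 CHR and 1 CCAAT match. E2F1 (chr20:33686336-33686635, minus strand) holds 2 E2F and 3 CCAAT matches, and CDC6 (chr17:40287629-40287928, plus strand) 1 E2F and 3 CCAAT matches. HMGCS1, of the sterol group described further on (chr5:43313363-43313662, minus strand), holds 2 CCAAT matches and neither of the other motifs.
MKI67: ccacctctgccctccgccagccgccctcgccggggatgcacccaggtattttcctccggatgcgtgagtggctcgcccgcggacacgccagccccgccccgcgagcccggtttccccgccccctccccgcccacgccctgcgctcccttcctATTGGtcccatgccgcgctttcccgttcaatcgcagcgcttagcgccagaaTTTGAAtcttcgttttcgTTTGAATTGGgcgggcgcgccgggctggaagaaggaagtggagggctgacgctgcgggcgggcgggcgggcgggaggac
GTSE1: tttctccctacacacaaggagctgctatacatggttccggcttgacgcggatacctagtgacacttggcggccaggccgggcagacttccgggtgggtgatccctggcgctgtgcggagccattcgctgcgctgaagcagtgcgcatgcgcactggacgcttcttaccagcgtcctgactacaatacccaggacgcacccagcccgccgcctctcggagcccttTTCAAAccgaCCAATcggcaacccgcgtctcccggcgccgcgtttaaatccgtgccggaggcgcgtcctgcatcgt
E2F1: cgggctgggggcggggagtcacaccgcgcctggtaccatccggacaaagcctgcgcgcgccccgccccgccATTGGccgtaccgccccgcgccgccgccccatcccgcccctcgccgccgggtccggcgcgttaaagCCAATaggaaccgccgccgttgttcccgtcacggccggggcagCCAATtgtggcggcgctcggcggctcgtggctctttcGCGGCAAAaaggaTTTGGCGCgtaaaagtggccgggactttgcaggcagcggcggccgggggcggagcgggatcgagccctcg
CDC6: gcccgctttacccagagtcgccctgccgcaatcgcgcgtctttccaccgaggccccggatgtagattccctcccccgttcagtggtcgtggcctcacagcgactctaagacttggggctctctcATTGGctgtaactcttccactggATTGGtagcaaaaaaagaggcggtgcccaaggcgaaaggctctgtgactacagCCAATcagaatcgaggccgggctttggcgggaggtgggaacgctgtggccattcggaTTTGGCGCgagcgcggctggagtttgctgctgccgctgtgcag
HMGCS1: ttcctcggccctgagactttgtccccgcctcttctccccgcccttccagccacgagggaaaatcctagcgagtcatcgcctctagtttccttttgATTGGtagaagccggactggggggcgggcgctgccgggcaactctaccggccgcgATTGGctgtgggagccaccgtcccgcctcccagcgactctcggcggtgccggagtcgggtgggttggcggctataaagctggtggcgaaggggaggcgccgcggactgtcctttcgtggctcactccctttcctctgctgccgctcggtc

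Across the lists, E2F letters stood in 16 of the 33 S phase signature promoters in the table (48.5%), against 3 of 44 G2/M promoters (6.82%) and 5.27% of the 11114 tested genes with a promoter there. CHR letters stood in 32 of 44 G2/M promoters (72.7%), against 3 of 33 S phase promoters (9.09%) and 11.5% of the tested genes. CCAAT was in 68.2% of the G2/M and 69.7% of the S phase promoters, against 36.6% of the tested genes. Over all 35116 promoters of this length the shares were 3.31% for E2F, 16.4% for CHR and 34.6% for CCAAT. Of the 100 promoters found for the 126 genes that at least doubled, 55 held CHR letters and 11 held E2F letters. A match is only a run of letters, and binding was not measured.

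Mitotic cyclins and kinases rose in 21 of 25 cases and fell in none (median log2 change 0.94). CCNA2, the cyclin A of S and G2, had 34.5, 38.6 and 29.3 CPM at 15 h, against 11.9, 10.1 and 11.3 CPM at 12 h, a log2 change of 1.63 ± 0.12 (adjusted p = 9.2e-12). CDK1, its mitotic kinase partner, had 44.2, 50.7 and 40.8 CPM at 15 h and 14.9, 12.8 and 12.2 CPM at 12 h (1.77 ± 0.1). CCNB1, the cyclin B that triggers mitosis with CDK1, moved much less, with 22.8, 24.9 and 21.8 CPM at 15 h and 15.2, 15.6 and 17.3 CPM at 12 h (0.54 ± 0.1, adjusted p = 0.0003). The factors that switch on the mitotic programme rose too: FOXM1 averaged 24.7 ± 4.1 CPM at 15 h and 6.77 ± 0.78 CPM at 12 h, and MYBL2 (B-MYB) 93.9 ± 14 and 30.1 ± 2.4 CPM (SD, n = 3 each). PLK1, the Polo kinase, averaged 10.5 ± 1.6 CPM at 15 h and 2.88 ± 0.63 CPM at 12 h, and AURKA, the Aurora kinase of the spindle poles, 19.4 ± 1.2 and 10.8 ± 0.32 CPM. LIN9, LIN37 and LIN52 of the MuvB core and the PLK1 activator BORA did not pass the test. LIN9 was called higher with the block over all libraries (adjusted p = 0.04) and LIN52 with the 6-library block (adjusted p = 0.012).

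The machinery of chromosome segregation followed. All 12 mitotic kinesins rose (median log2 change 1.41), among them the spindle motor KIF11, at 54.8 ± 6.9 CPM at 15 h and 22.1 ± 2.6 CPM at 12 h, and the chromokinesin KIF4A at 16.9 ± 2.8 and 4.03 ± 0.68 CPM (SD, n = 3 each). KIF20A, the kinesin of the central spindle, had 10, 10.6 and 7.52 CPM at 15 h, against 1.8, 2.44 and 2.2 CPM at 12 h (2.12 ± 0.18). Spindle and cytokinesis genes rose in 26 of 28 cases (median 1.21), led by HMMR at 2.37 ± 0.15 and ANLN, which scaffolds the cleavage furrow, at 1.83 ± 0.08; CKAP5 and KNSTRN did not pass the test. Centromere and kinetochore genes rose in 30 of 39 cases (median 0.95), with HJURP, the chaperone of the centromeric histone, at 18.6 ± 1.4 CPM at 15 h and 4.07 ± 0.49 CPM at 12 h (SD, n = 3 each). The outer kinetochore gene NUF2 had a log2 change of 1.91 ± 0.2, the checkpoint gene MAD2L1 1.01 ± 0.09 and BUB1 1.15 ± 0.13. Condensin, cohesin and chromosome structure genes rose in 18 of 28 cases (median 0.41): TOP2A, the topoisomerase that untangles sister chromosomes, had 55.8, 59.4 and 48.5 CPM at 15 h against 13.1, 13.2 and 13 CPM at 12 h. The cohesin acetylase ESCO2 of S phase rose by 1.96 on the log2 scale, while its relative ESCO1 and the cohesin subunits SMC3, STAG2 and RAD21 did not pass the test, RAD21 doing so with the block over all libraries (adjusted p = 0.032). NCAPG, of condensin I, shares 33.1% of its exonic bases with another gene.

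Of 16 genes of the anaphase-promoting complex and its regulators, 6 rose and none fell (median log2 change 0.07). The 6 were UBE2S and UBE2C, the E2 enzymes of the complex, and others that act on or under it. UBE2C had a log2 change of 1.84 ± 0.15 and separase ESPL1 1.18 ± 0.1. The inhibitor FBXO5 had 1.03 ± 0.12, securin PTTG1 0.95 ± 0.14 and the activator CDC20 0.67 ± 0.1. The other 10, which are FZR1 and 9 subunits of the complex, did not pass the test. With the block over all libraries 1 of these subunits fell, CDC16, and with the 6-library block 3 fell. Of 12 centriole duplication genes 6 rose, with the kinase PLK4 at 23.1 ± 0.69 CPM at 15 h and 14.2 ± 0.27 CPM at 12 h and its partner STIL at 39.8 ± 1.7 and 22.8 ± 0.85 CPM (SD, n = 3 each). DIAPH3, a formin that builds actin filaments and belongs to none of the lists, rose too, with 24.2, 24.4 and 18.8 CPM at 15 h and 4.76, 4.19 and 4.25 CPM at 12 h (2.36 ± 0.14).

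**Figure D2:**
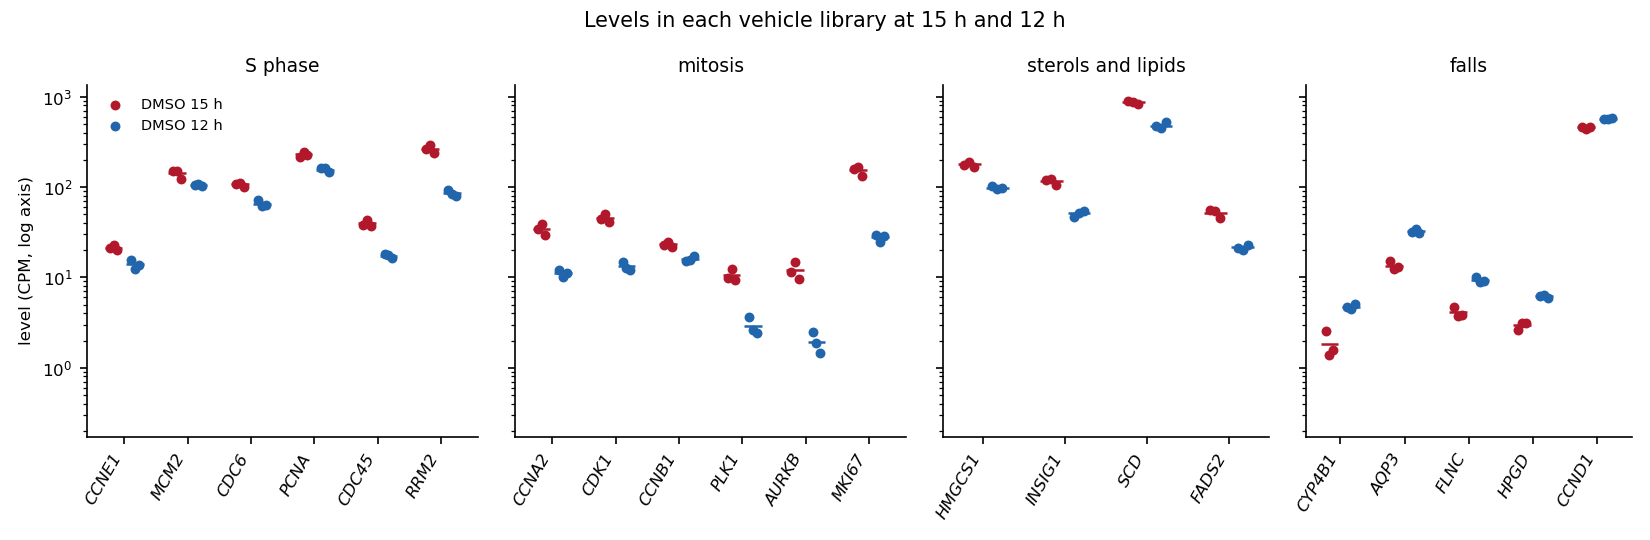
Level of each gene in CPM on a log axis in each of the 3 DMSO 15 h libraries (red, left of each pair) and the 3 DMSO 12 h libraries (blue), with lines at the group means. The groups are separate in every gene drawn, by the widest margin in MKI67 and AURKB and by a narrow one in MCM2, CCND1, CCNB1 and CCNE1. The genes were picked from the named ones, and the largest rises and falls were named only if their groups were separate. Of the 15787 tested genes, 2330 had all 15 h libraries above the 12 h ones and 1743 all below.

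How far each list had come by 15 h was read against its level at 24 h. Each gene's level was divided by its mean at DMSO 24 h, and the median over a list was taken in each library. The S phase signature was at 110%, 115% and 102% of its 24 h level in the 15 h libraries, against 79.5%, 73.6% and 76.3% in the 12 h libraries. The G2/M signature was at 20.9%, 22.5% and 18.6% at 15 h, against 8.44%, 7.92% and 7.60% at 12 h, and the mitotic kinesins were at 22.1%, 24.8% and 19.4%, against 8.62%, 8.56% and 8.98%. No 15 h library overlapped a 12 h library in any of the 3 lists. Other lists lay between: at DMSO 15 h the libraries stood at 88.8% to 94.1% for origin licensing and firing, 73.0% to 74.7% for deoxynucleotide synthesis, and 82.8% to 89.5% for recombination. For centrioles they stood at 67% to 71.1%, for condensin and cohesin at 57.5% to 62.6% and for centromeres at 48.2% to 51.4%. For the anaphase-promoting complex and its regulators they stood at 74.7% to 77.2%. That list was at 74.9% to 80.6% at DMSO 12 h, so its median level had not risen. Of 125 mitotic or G2/M genes that rose, 9 were still under 10% of their 24 h level at 15 h, 50 were between 10% and 25%, 34 between 25% and 50%, and 32 at 50% or above. The lowest were KIF20A (5.21%), PLK1 (6.48%), DLGAP5 (7.45%), CENPF (7.74%), CDC25C (8.47%), TOP2A (9.01%) and CCNB1 (9.58%). The highest were DSN1 of the kinetochore (120%), the centriole genes CETN2 (101%) and CEP78 (93.3%) and NCAPH2 of condensin II (90.0%). These names were taken from the 2 ends of that order after the values were seen.

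**Figure D3:**
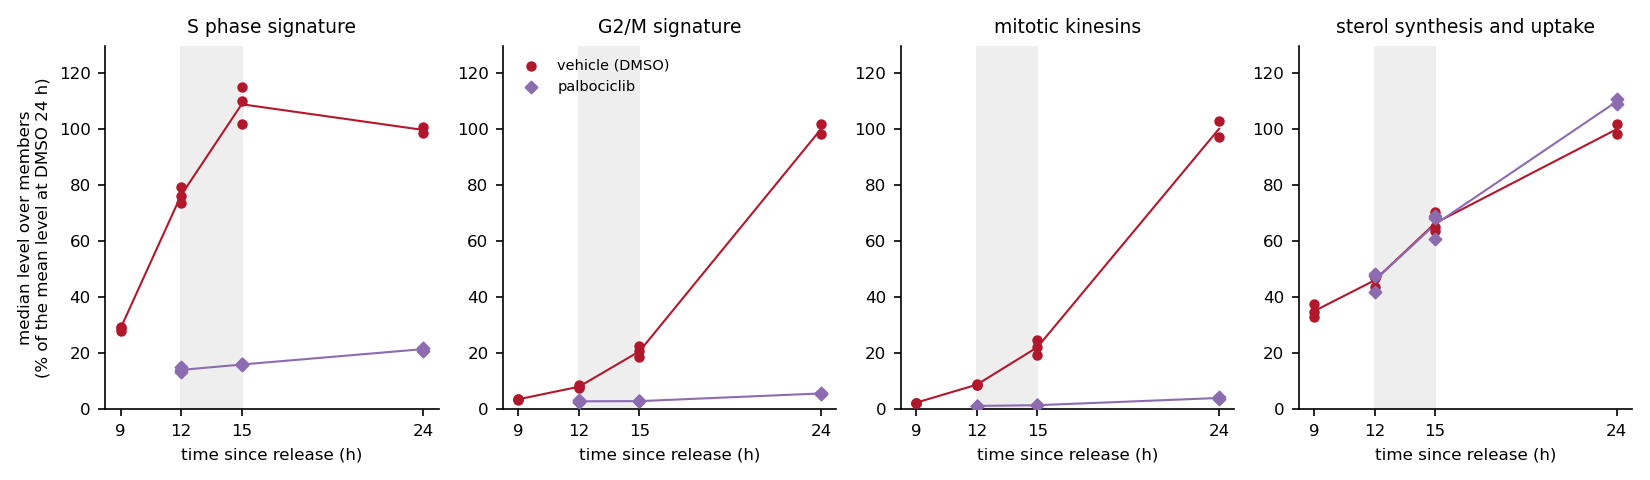
Median level over the members of 4 lists, in percent of their mean level at DMSO 24 h, against hours since release, for each DMSO library (red circles) and palbociclib library (purple diamonds), with lines through the group means and the 12 to 15 h interval in grey. The S phase signature reached 102% to 115% at DMSO 15 h and the G2/M signature 18.6% to 22.5%, while the sterol list stood at 63.7% to 70.6% at DMSO 15 h and 60.8% to 69.1% at palbociclib 15 h.

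Some genes changed by less than in the 3 h before. The signed log2 change from 12 to 15 h exceeded that from 9 to 12 h in 29 genes (0.184%). It was smaller in 116 genes (0.735%). The test of this difference takes in the 12 h libraries shared by both steps. Because the sign is kept, a fall that stopped counts as the larger change and a rise that slowed as the smaller. In the S phase signature 25 of 43 members had the smaller change and none the larger, and in origin licensing and firing 18 of 29. In the replication fork list 8 of 33 did. In the G2/M signature 3 of 54 members had the smaller change and 1 the larger, in the centromere list 9 of 39 and 1, in the mitotic cyclins and kinases 5 of 25 and in the condensin and cohesin list 5 of 28. EXO1, an exonuclease of repair, changed by 1.15 in this step and by 3.34 in the step before, a difference of −2.20 ± 0.2 (adjusted p = 2.4e-08). The others furthest in that direction were NCAPH (1.40 in this step and 3.59 before), MYBL2 (1.65 and 3.74) and E2F2 (1.11 and 3.13), on the log2 scale. In the other direction METTL7A, a methyltransferase-like protein, was at 4.44 ± 0.42 CPM at 15 h and 4.42 ± 0.98 CPM at 12 h (SD, n = 3 each) after a log2 change of −1.87 from 9 to 12 h. HSPA1B, a heat shock protein with a near-identical copy in HSPA1A, was likewise at 60 ± 2 and 56.7 ± 2.3 CPM after −1.28. CRY2, a clock repressor, changed by 0.45 after −0.91, and DEPDC1, a mitotic gene, by 1.13 after −0.30. Leaving out 1 library left 10 larger changes without replicate 1 of DMSO 12 h, 14 without its replicate 2, 14 without its replicate 3 and 11 without replicate 1 of DMSO 9 h, and 74 smaller ones without replicate 1 of DMSO 12 h. With the block over all libraries 44 changes were larger, and with the block in the libraries concerned alone 255 were larger and 574 smaller. The CRY2 call in this step was lost when any of 4 libraries was left out.

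With CDK4 and CDK6 inhibited, fewer cell cycle genes were called over the same 3 h than with DMSO. Between palbociclib 15 h and palbociclib 12 h, 217 genes rose (1.37%) and 251 fell (1.59%), and none of the 12 largest named rises of the vehicle step was among them, with log2 changes there of −0.27 to 1.24. In the palbociclib step the G2/M signature had 4 of 54 members higher (median log2 change 0.11) and the S phase signature 4 of 43 (median 0.07), and neither had one lower. The G2/M signature was low in both groups, at 2.74% to 2.98% of its DMSO 24 h level at palbociclib 15 h. At palbociclib 12 h it stood at 2.57% to 3.18%. The mitotic kinesins were at 1.31% to 1.45% at palbociclib 15 h and 1.05% to 1.18% at palbociclib 12 h. What size of change could be called at such levels was not tested, so a missing call does not show an unchanged gene. Leaving out 1 library lowered the 217 rises to 130 without replicate 2 and 132 without replicate 3 of palbociclib 15 h, and to 117 without replicate 1 and 142 without replicate 2 of palbociclib 12 h. The 251 falls came to 149 without replicate 2 and 160 without replicate 3 of palbociclib 15 h, and to 136 without replicate 1 of palbociclib 12 h.

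Tested directly, the vehicle step exceeded the palbociclib step in 100 genes (0.633%) and fell short of it in 1 (0.00633%). The larger changes took in 21 of 54 G2/M members, 12 of 43 S phase members, 15 of 28 spindle and cytokinesis genes, 10 of 28 condensin and chromosome structure genes and 6 of 14 deoxynucleotide enzymes. In all, 73 of the 100 were in the S phase or mitotic lists. MKI67 had 1.62, 2.08 and 2.02 CPM at palbociclib 15 h and 1.97, 2.25 and 1.53 CPM at palbociclib 12 h, so that the groups overlapped, and its difference between the steps was 2.47 ± 0.4 (adjusted p = 0.0005). KIF20A had a difference of 2.39 ± 0.43 and BIRC5, the survivin of the passenger complex, 2.70 ± 0.58. BIRC5 rose by 1.86 with DMSO, and the rest of its difference came from low palbociclib levels, 0.314 CPM at 15 h and 0.532 CPM at 12 h. Its adjusted p reached 0.77 in edgeR's quasi-likelihood test with palbociclib libraries left out. GTSE1 had a difference of 2.38 ± 0.54, CCNA2 1.70 ± 0.3 and CDK1 1.30 ± 0.24. Their adjusted p-values were 0.023, 0.0014 and 0.0028 in edgeR's quasi-likelihood test.

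CCNB1 differed by 0.45 (95% interval 0.14 to 0.76), CDC6 by −0.46 (−0.98 to 0.06) and MCM2 by 0.16 (−0.12 to 0.44), none past the adjusted threshold. CDC6 was itself higher at palbociclib 15 h than at palbociclib 12 h, at far lower levels (3.57 and 1.6 CPM, log2 change 1.17, adjusted p = 0.0024). The 1 gene in the other direction, named after its values were seen, was RCSD1. It had no count in the DMSO 15 h libraries and 11 counts (0.231 CPM) at DMSO 12 h. A total of 3 counts over the DMSO 15 h group would be 0.0666 CPM, 3.5-fold lower, leaving aside the sampling error of the 11 counts. With palbociclib RCSD1 had 0.341, 0.493 and 0.189 CPM at 15 h and 0.082, 0.0998 and 0.0697 CPM at 12 h. Without both replicate 3 libraries of palbociclib, a setting chosen after seeing the data, 58 changes were larger, and CCNA2, CDK1 and BIRC5 were no longer called. BIRC5 also lost its call without replicate 2 or replicate 3 of palbociclib 15 h or replicate 3 of palbociclib 12 h. GTSE1 lost it without replicate 3 of DMSO 12 h, replicate 1 or 2 of palbociclib 15 h or replicate 1 or 2 of palbociclib 12 h.

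**Figure D4:**
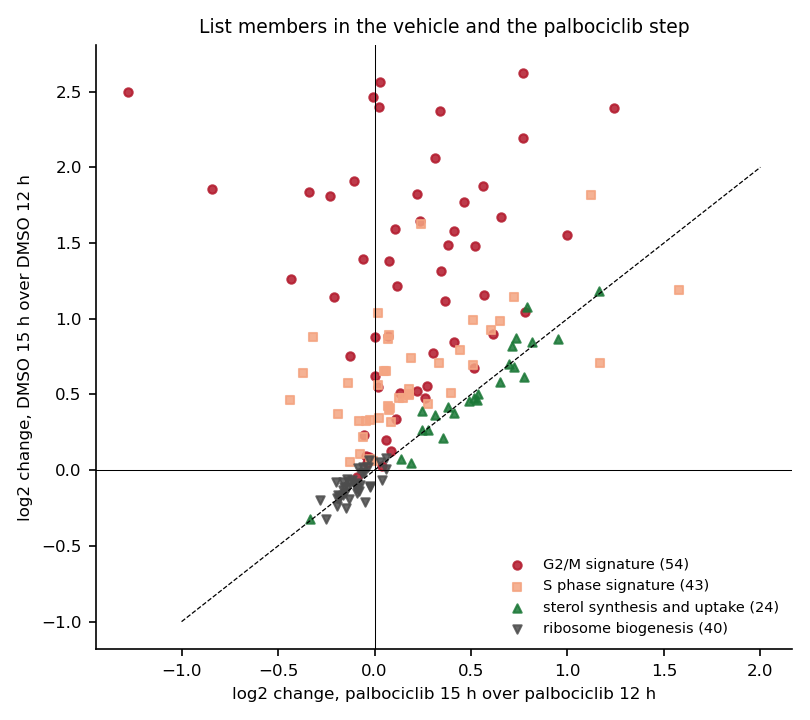
Log2 change of DMSO 15 h over DMSO 12 h (vertical axis) against that of palbociclib 15 h over palbociclib 12 h (horizontal axis) for the members of 4 lists, with a dashed line where both are equal. G2/M members (circles) and S phase members (squares) lie mostly above the line, and sterol genes (triangles) run along it up to INSIG1, at 1.18 with DMSO and 1.16 with palbociclib.

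Sterol and fatty acid genes rose in the same 3 h with DMSO and with palbociclib. Of 24 tested genes for sterol synthesis and uptake, 20 rose with DMSO and none fell (median log2 change 0.47), and 19 rose with palbociclib and none fell (median 0.52). HMGCS1, which commits acetyl units to the mevalonate pathway, had 176, 191 and 167 CPM at DMSO 15 h, against 102, 94.7 and 97.2 CPM at DMSO 12 h, a log2 change of 0.86 ± 0.08 (adjusted p = 3.8e-09). At palbociclib 15 h it had 171, 194 and 195 CPM, against 91.3, 88.4 and 111 CPM at palbociclib 12 h, and the difference between the steps was −0.09 (95% interval −0.33 to 0.16). INSIG1, the retention factor of the SREBP pathway and one of its targets, averaged 115 ± 9.5 CPM at DMSO 15 h and 50.9 ± 3.9 CPM at DMSO 12 h (SD, n = 3 each). IDI1 and FDPS, enzymes of isoprenoid synthesis, rose by 0.87 and 0.70 on the log2 scale, with 17.9% and 18.6% of their exonic bases shared with other genes. Across the 24 genes the difference between the steps ran from −0.16 to 0.29, none had an unadjusted p below 0.05, and the 95% intervals reached from −0.66 to 0.68.

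Of 12 fatty acid genes 8 rose with DMSO and 8 with palbociclib, and none fell, with 9 higher with DMSO under the block over all libraries and 11 under the 6-library block. FADS2, a desaturase of polyunsaturated fatty acids, had 56, 53.7 and 45.4 CPM at DMSO 15 h and 21, 20.3 and 22.9 CPM at DMSO 12 h (1.28 ± 0.09), and the stearoyl desaturase SCD averaged 873 ± 34 and 478 ± 37 CPM (SD, n = 3 each). The differences between the steps ran from −0.12 to 0.14 over these 12 genes, with intervals from −0.33 to 0.33. The sterol list stood at 65.1%, 70.6% and 63.7% of its 24 h level at DMSO 15 h, against 47.4%, 43.7% and 47.0% at DMSO 12 h.

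**Figure D5:**
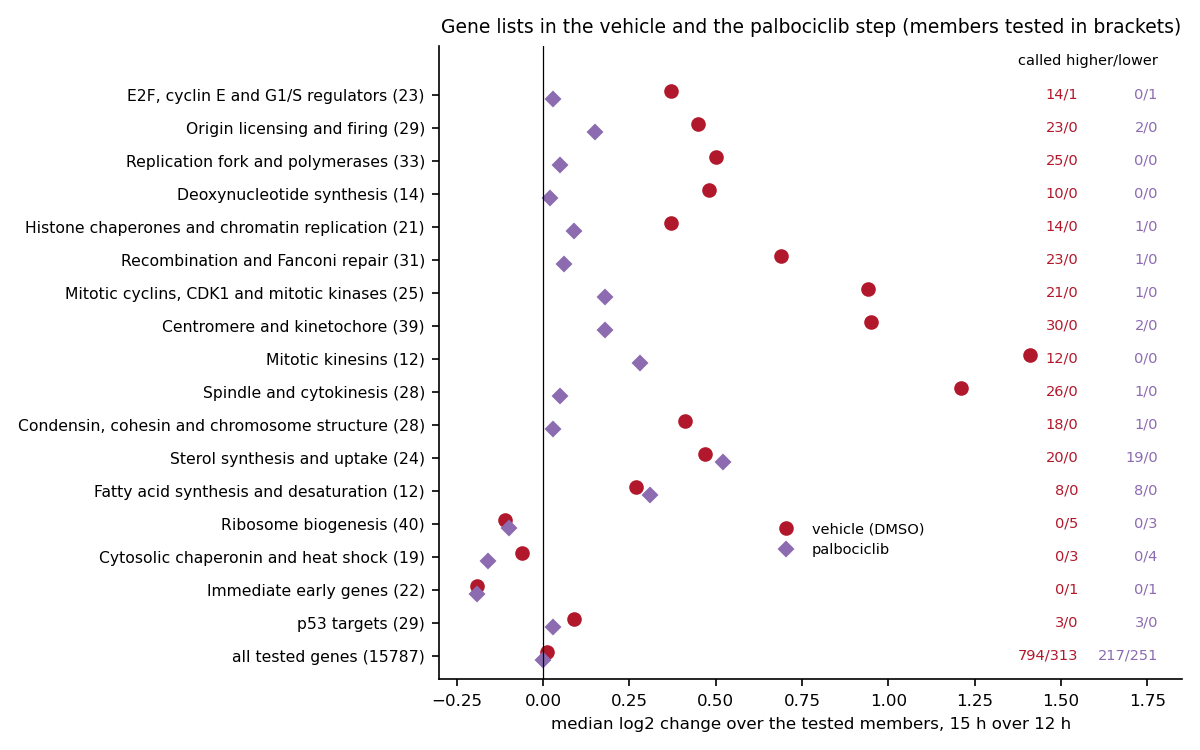
Median log2 change of 15 h over 12 h over the tested members of each list, with DMSO (red circles) and with palbociclib (purple diamonds), and the counts of members called higher and lower at the right. The mitotic kinesins lie furthest right with DMSO (1.41, against 0.28 with palbociclib), and the sterol list is at 0.47 with DMSO and 0.52 with palbociclib.

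The falls were smaller than the rises, and many went the same way with palbociclib. The 12 largest named falls ran from −1.40 to −0.89 on the log2 scale. Of these 12, 9 also fell in the palbociclib step, where 1.59% of all tested genes fell. AQP3, a channel for water and glycerol, had 15.1, 12.5 and 13 CPM at DMSO 15 h, against 31.6, 34.1 and 31 CPM at DMSO 12 h, a log2 change of −1.26 ± 0.1 (adjusted p = 4.9e-11), and its change with palbociclib was −1.10. CYP4B1, a cytochrome P450, had 2.52, 1.38 and 1.56 CPM at 15 h and 4.69, 4.51 and 5.01 CPM at 12 h (−1.40 ± 0.17), and −1.41 with palbociclib. FLNC, the actin crosslinker filamin C, had a log2 change of −1.19 ± 0.13, the proton pump subunit ATP6V1B1 −1.19 ± 0.19, HPGD, which inactivates prostaglandins, −1.07 ± 0.14, and the polarity gene PARD3B −0.97 ± 0.16. IL1RL1, an interleukin receptor, KCNAB2, a potassium channel subunit, and ETNK2, an ethanolamine kinase with 21.8% of its exonic bases shared, had −0.96, −0.90 and −0.89. COL28A1 (−1.14), FCMR (−0.93) and TNFSF14 (−0.90) were those without a call under palbociclib, and TNFSF14 lost its call when any of 4 libraries was left out.

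Of the 313 falls, 146 were also called lower in the palbociclib step, which shares no library with the vehicle step. These were 46.6% of the vehicle falls, against 1.59% of all tested genes called lower with palbociclib. They were 58.2% of the 251 palbociclib falls, against 1.98% of all tested genes called lower with DMSO. Of the 794 rises, 174 were also called higher there, 21.9% of the vehicle rises, against 1.37% of all tested genes. They were 80.2% of the 217 palbociclib rises, against 5.03% of all tested genes called higher with DMSO. The median log2 change of the 313 genes was −0.34 with DMSO and −0.28 with palbociclib, and that of the 794 was 0.45 and 0.19. A single gene, SCARA3, was called in opposite directions (0.57 with DMSO and −0.44 with palbociclib). It was named after its values were seen.

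In the growth, signalling and stress lists few members passed the test, where 5.03% of all genes were higher and 1.98% lower. The ribosome biogenesis, heat shock and ERK lists exceeded the share lower with at least 3 members each. The YAP, glycolysis, immediate early, FoxO, interferon and lysosome lists also exceeded it, with 1 member lower each. The ATF4, tubulin, nuclear transport, YAP, p53 and glycolysis lists exceeded the share higher. The immediate early, NF-kB, FoxO, interferon, lysosome and proteasome lists had at most 1 member called in each direction. Ribosome biogenesis had 5 of 40 members lower and none higher (median log2 change −0.11), among them RRP12 at 105 ± 8.9 CPM at 15 h and 131 ± 4.6 CPM at 12 h (SD, n = 3 each). Chaperonin and heat shock genes had 3 of 19 lower: HSPA1A, HSPA8 and HSPH1. JUNB, an immediate early gene, was the only one of 22 called, at 123 ± 6.7 CPM at 15 h and 177 ± 2.5 CPM at 12 h. MYC averaged 309 ± 14 and 374 ± 9.4 CPM (adjusted p = 0.13, 0.087 with the block over all libraries and 1.2e-09 with the 6-library block). ERK output had 1 of 21 higher, ETV5, and 3 lower, the phosphatase gene DUSP4 (−0.30), the AP-1 gene FOSL1 (−0.24) and CCND1. YAP and TGF-beta targets had 2 of 16 higher and 1 lower, and NF-kB targets 0 of 14. FoxO and quiescence genes had 1 of 27 each way (TSC22D3 higher and BTG1 lower). Targets of p53 had 3 of 29 higher (CCNG1, DDB2 and TP53I3), and ATF4 and unfolded protein response genes 4 of 23, including the chaperone HSPA5 and the serine enzyme PHGDH. Tubulins had 3 of 12 higher (TUBA1A, TUBA1B and TUBB, which share sequence with close copies), and nuclear transport genes 4 of 30, including XPO1 and NUP107. For glycolysis and hypoxia the counts were 2 of 22 higher and 1 lower. Interferon genes had 1 of 31 each way, lysosome genes 1 of 21 each way, and proteasome genes 1 of 31 higher.

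Of these calls, ETV5 lost its own when any 1 of the 6 libraries was left out, BTG1, HSPA8 and HSPH1 when any of 5 was, and FOSL1 when any of 4 was. With the block over all libraries each of these list counts moved by at most 1, apart from the ATF4 genes, of which 6 were higher. With the 6-library block, in which 10.0% of all genes were higher and 7.68% lower, ribosome biogenesis had 22 lower and the immediate early genes 9 lower and 1 higher. In that fit the chaperonin list had 8 lower and 1 higher, glycolysis and hypoxia 4 lower and 10 higher, tubulins 1 lower and 9 higher and proteasome subunits 1 lower and 7 higher.

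The label of a breast epithelial line was set against cell type markers, and no defining basal marker was at 0. Summed basal markers (13 genes) stood at 32500 to 32900 CPM at 15 h and 30600 to 32200 CPM at 12 h; 3 rose, KRT14 and LAMA3 among them, and KRT17 and EGFR fell. Luminal markers summed to 663 to 733 CPM at 15 h and 754 to 792 CPM at 12 h, with MUC1 the 1 of 6 tested that fell (2 with either block), and ELF5 and KIT had no count. Squamous differentiation markers summed to 124 to 132 CPM and 139 to 145 CPM, with KRT4 and KRT10 lower. With the block over all libraries 3 fell, and with the 6-library block 6 fell and 1 rose. Mesenchymal markers summed to 1860 to 2010 CPM at 15 h and 1530 to 1620 CPM at 12 h, with FN1, CDH2 and VIM higher and DCN lower, and COL1A2 and COL3A1 had no count. Blood and endothelial markers summed to 10.1 to 11.2 CPM and 12.3 to 16.6 CPM, with CD14 the 1 of 3 tested that fell, and CD3E and CDH5 were among those with no count. FN1 had 839, 944 and 857 CPM at 15 h against 595, 627 and 681 CPM at 12 h, and its log2 change was 0.47 with DMSO and 0.35 with palbociclib. With the 6-library block 5 basal markers rose and 4 fell, and 5 mesenchymal markers rose and 2 fell. The calls of MUC1 and CD14 were each lost when any of 4 libraries was left out. The part of these marker shifts in the results above was not tested.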

How the data were processed

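Per the labels' protocols, poly(A) RNA was captured and made into libraries with a stranded kit, read as single 75 nt ends. The submitters' processing notes name TopHat2 2.1.1, Bowtie2 2.2.9, Subread 1.5.1 and GRCh38.p7. The values deposited by the authors are raw counts of reads in exons, summed by gene name. Per the file headers they come from featureCounts 1.5.1 with GENCODE 25 and no strand option, so genes that overlap on opposite strands are uncertain. Names on more than 1 chromosome (178) were counted together.

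Counts were fitted in R 4.3.3 with edgeR 4.0.16: filterByExpr (15787 of 56269 names), TMM factors (0.927 to 1.082), 1 quasi-likelihood fit of 31 libraries by group (20 residual degrees of freedom, common biological coefficient of variation 6.55%), and Benjamini-Hochberg adjustment over all tested genes at 0.05. Levels are CPM with TMM factors. An SE is the absolute log2 change over the square root of F. Replicates differed by more than sampling noise (chi-square per degree of freedom 3.3 to 9.25). In simulated counts of 15787 genes, changes were given at DMSO 15 h only to genes with a mean log2 CPM above 1. The test of DMSO 15 h against DMSO 12 h recovered 83.6% of those changed 1.5-fold and 97.0% of those changed 2-fold. Each gene otherwise had 1 mean level in all groups, and no axis between replicates was simulated. The shares do not cover genes at lower levels.

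Deviations from the group means of same-numbered DMSO 15 h and 12 h libraries correlated at 0.119, 0.451 and 0.276 over 11739 genes. The numbers were therefore taken as pairing the samples of the vehicle step. This comes from the data, and the labels give only the number. For replicate 1 of DMSO 15 h it is weak, since that library correlated at 0.105 with replicate 3 of DMSO 12 h. The main test is by group and does not use the pairing, which enters only the fits with the replicate block. The palbociclib pairs correlated at 0, 0.242 and 0.28 and were not taken as pairs by this check. The fits with the replicate block still used their numbers, over all 31 libraries and in the libraries of the palbociclib tests alone.

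Lists and members were chosen with earlier results of these data known. Named genes were a fixed set of cell cycle genes, the 12 largest called rises and falls (mean log2 CPM 1 or more, groups not overlapping), up to 3 list members per direction by p, and the 4 largest each way in the 2 tests of a difference between steps. Mitochondrial, Y-linked and X-inactivation genes were not named. The alternatives were DESeq2 1.42.0, other scalings, no low-count filter, exon length trends removed, fewer groups in the fit, the replicate block and leaving out each library. Motif shares use RefSeq promoters (GRCh38.p14). A few genes are not reported here.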

Additional observations from a re-analysis of the deposited data

Results flagged for a closer look

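Some changes differed between the vehicle and the palbociclib step by the test of that difference. This held for 100 genes with the larger rise (or smaller fall) with DMSO and for 1 gene the other way. Among the genes named for it, the differences in log2 change, vehicle step minus palbociclib step, were 2.70 for BIRC5, 2.47 for MKI67, 2.39 for KIF20A, 2.38 for GTSE1, 1.70 for CCNA2 and 1.30 for CDK1. MKI67 and KIF20A kept an adjusted p of at most 0.023 and 0.027 in edgeR's and DESeq2's tests over all 22 alternatives. The means at palbociclib 15 h and palbociclib 12 h were 2.69 and 2.02 CPM for CDK1, and 0.314 and 0.532 CPM for BIRC5.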

How the results depend on the processing

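The direction of the vehicle step held for every named gene under every alternative except METTL7A, which was not called and read −0.02 without replicate 3 of DMSO 15 h and −0.16 without replicate 2 of DMSO 12 h, in a range of −0.16 to 0.14 with 1 library left out. Rises came to 552 to 680 with 1 library left out, to 976 with the replicate block over all libraries, and to 1584 with the block in the step's own libraries and 1542 with exon length trends also removed; these last settings change the block and the libraries together. Falls came to 179 to 249 with 1 library left out, 485 with library totals, 479 with exon length trends removed, 477 with only the step's own libraries, 441 with the block over all libraries, 1212 with the block in the step's own libraries and 1290 with length also removed, and falls of at least 2-fold to 26 and 30 in those last 2 settings. In the palbociclib step, rises came to 117 to 218 and falls to 136 to 188 with 1 library left out, 378 and 428 with the block in its own libraries, 527 and 563 with length also removed, and 96 and 108 without both replicate 3 libraries. Genes with the larger change with DMSO came to 69 to 107 with 1 library left out and 58 without both replicate 3 libraries of palbociclib; those with the smaller came to 0 in DESeq2, 2 without the low-count filter and 0 with the block in the 12 libraries concerned, with or without length. Against the 3 h before, larger signed changes came to 10 to 25 and smaller ones to 74 to 109 with 1 library left out. Larger ones came to 45 with length removed and 44 with the block over all libraries. Larger and smaller ones came to 255 and 574 with the block among the libraries concerned, and 318 and 526 with length also removed. The cause was not tested. CDT1 and CDC25A also lost their call without any of 4 libraries. In simulated counts the test of a difference between the vehicle and palbociclib steps recovered 70.1% of 1.5-fold and 92.5% of 2-fold differences. The changed genes all had a mean log2 CPM above 1 and the same mean level with palbociclib as in the other groups. Those shares therefore do not cover genes that are low with palbociclib.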
